A study of Mus musculus with 22 samples.

Results

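Transcripts of 10 genes that the transcription factor p53 is known to activate were followed through the conversion of mouse primordial germ cells into a pluripotent line: Mdm2, Ccng1, Bax, Bbc3, Aen, Btg2, Trp53inp1, Sesn2, Phlda3 and Pmaip1. They were taken as all non-control probes whose gene name on the array is one of these symbols, which gave 17 probes of 41174 and 10 genes of 28103. Primordial germ cells (PGCs) are the embryonic precursors of sperm and eggs, and embryonic germ cells (EGCs) are the self-renewing line they can form in culture. The p53 protein is held low by the ubiquitin ligase Mdm2, itself a p53 target, and is stabilised by DNA damage or by the Arf product of Cdkn2a, so its activity is set mainly at the protein level and is not read from its mRNA. Its targets halt the cell cycle, repair DNA, drive apoptosis and restrain growth signalling. PGCs that have lost their niche die readily, and loss of p53 or activation of the kinase AKT is known to favour the derivation of EGCs.

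The study hybridised 22 arrays, 1 per group, in 3 sets. The first followed E11.5 PGCs, taken uncultured, at day 1 with bFGF, at days 2, 3 and 6 with bFGF, 2i and A83-01, and at day 10, for which the labels state no medium, with an EGC line and an ESC (embryonic stem cell) line beside them. 2i stands for the MEK inhibitor PD325901 (1 uM) with the GSK inhibitor CHIR99021 (3 uM), and A83-01 (250 nM) inhibits activin and TGF-beta receptors. The second set held PGC cultures at day 2 with bFGF alone, with bFGF and PD325901, CHIR99021, A83-01 or 4-hydroxytamoxifen (4OHT, 100 nM, added to activate AKT), or with bFGF, 2i, A83-01 and 4OHT. The third held EBRTcH3 ESCs, a line with a regulated transgene site, parental or with forced Prdm14, Vasa, Nanos2, Nanos3, Dnd, GFP or Blimp-1. For GFP and Blimp-1 the labels name an EF1a promoter and day 2, and they state neither strain nor number of clones for any line, nor the allele through which 4OHT acts. The labels describe cells positive for SSEA-1 for the PGC cultures, ESCs and EGCs, and positive for GFP for the constructs, with no gate for parental EBRTcH3. Cells were grown in Knockout DMEM with serum replacement and LIF.

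A level here is log2 intensity minus log2 of the array's 75th percentile, so that 0 is the 75th percentile; levels are compared for a gene between arrays, not between genes. No group was replicated, so a difference between 2 arrays has no test, and limma p-values measure only the spread between the arrays of a fit. The arrays lay on 10 slides. Their 75th percentiles ran from an intensity of 123.9 with 2i, A83-01 and 4OHT to 782.5 at day 6, and 44.3 to 64.7 percent of probes were well above background. Germ cell markers were well above background for 10 of 10 genes on the PGC array, and pluripotency markers for 9 of 9 named genes on every array. All 17 probes of the p53 targets were well above background and unsaturated on every array. The probes printed in 10 copies gave the error within an array: the SD of log2 intensity over copies was at most 0.049 for Bax and at most 0.178 for a Mdm2 probe, at day 6. That spread covers spots only and not cultures.

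The promoters were read first, since p53 acts through a response element made of a pair of decamers. Windows from 250 bases before to 50 after a RefSeq transcription start (GRCm38.p6) were found for 8 of the 10 genes, with 11 windows. The p53 response element, allowing at most 1 base between decamers, was searched by its consensus on both strands. Of 32851 windows of this length over all genes, 36 (0.11 percent) held it with at most 1 mismatch and 224 (0.682 percent) with at most 2. Ccng1 and Bax were the members with such a match, and they are shown because they carry it within the promoter itself. In capitals is the matched element, 5′ to 3′ on the strand of the gene.
Ccng1 promoter, chr11:40755442-40755501, minus strand: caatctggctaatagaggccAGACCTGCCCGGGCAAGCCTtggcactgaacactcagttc
Bax promoter, chr7:45467059-45467119, minus strand: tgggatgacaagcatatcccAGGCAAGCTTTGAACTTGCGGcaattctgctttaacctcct
The Ccng1 element spans -195 to -176 from the start with 1 mismatch and adjoining decamers, and the Bax element -201 to -181 with 2 mismatches and 1 base between them. A single exact decamer was also present in the windows of Aen and Mdm2, against 2745 of all windows (8.36 percent). A match is a string of letters and not a measured site, and elements in introns, where Mdm2 is known to carry its own, lie outside these windows.

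**Figure D1:**
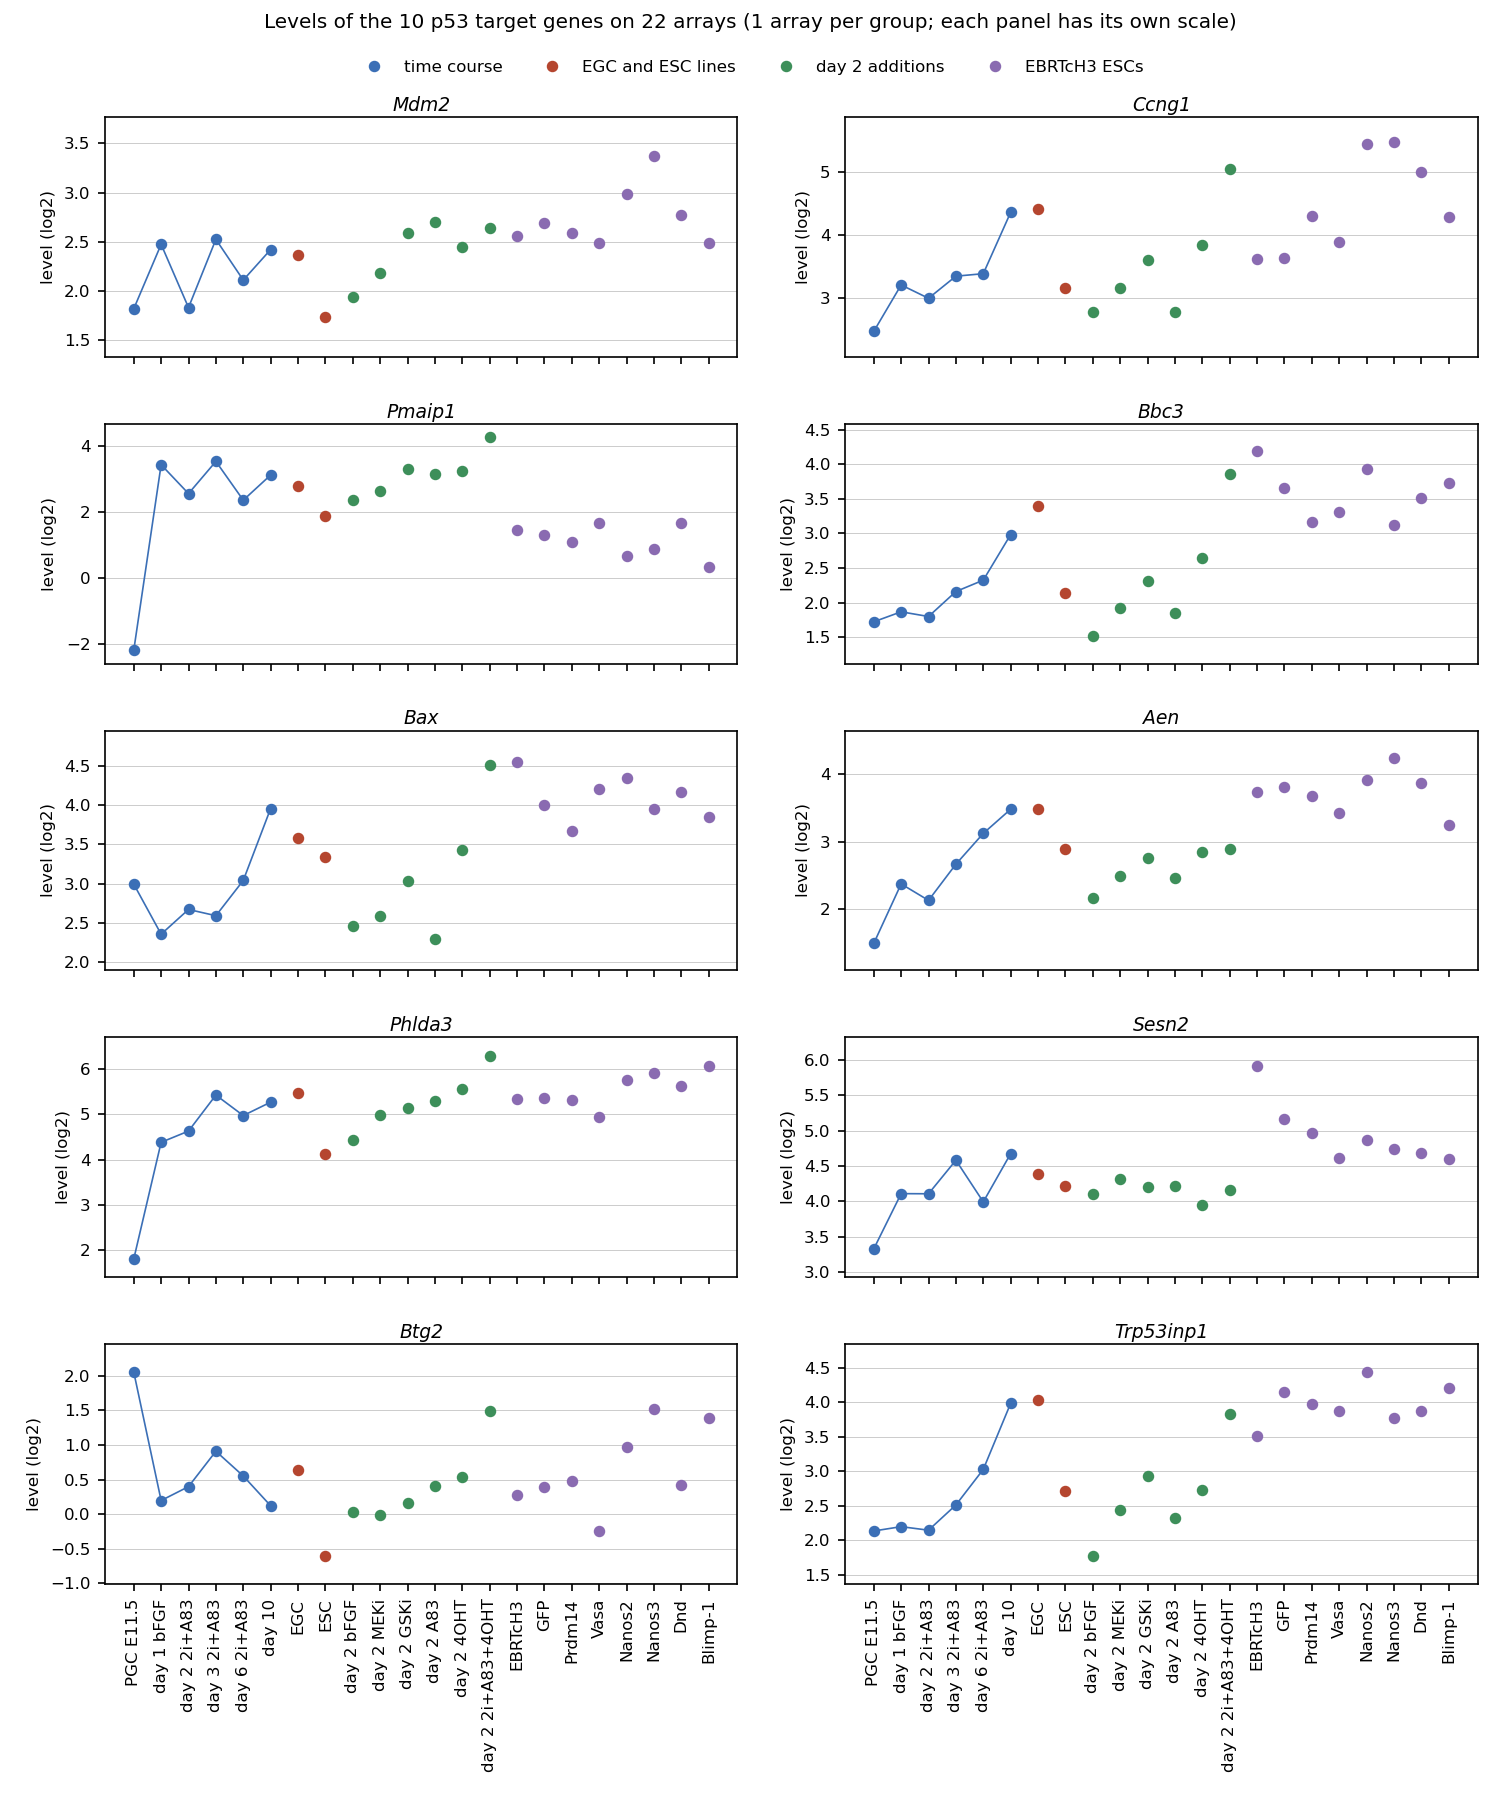
Level (log2 relative to the array's 75th percentile, y axis) of each p53 target on the 22 arrays (x axis); each point is 1 array, the line joins the 6 arrays of the time course, and every panel has its own scale. Pmaip1 and Phlda3 are lowest in uncultured PGCs, at -2.18 and 1.81, where Btg2 is highest, at 2.05.

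The largest differences among the members at entry into culture were those of Pmaip1 and Phlda3. Pmaip1 encodes Noxa, a BH3-only protein that neutralises MCL1 and so permits apoptosis. Its level was -2.18 in uncultured PGCs, 3.44 at day 1, 2.57 at day 2, 3.54 at day 3, 2.37 at day 6 and 3.13 at day 10, and 2.80 in EGCs. The PGC array was below every other array, which ran from 0.34 with Blimp-1 to 4.28 with 2i, A83-01 and 4OHT. Day 1 was 5.63 higher on the log2 scale, or 49.4-fold. Phlda3 encodes a pleckstrin homology protein that competes with AKT for membrane lipid. It stood at 1.81 in PGCs, 4.38 at day 1, 4.63 at day 2, 5.42 at day 3, 4.97 at day 6, 5.27 at day 10 and 5.48 in EGCs, a first-day difference of 2.58. Btg2, an antiproliferative cofactor of mRNA deadenylation, ran the other way, at 2.05 in PGCs and 0.20 at day 1, a difference of -1.85. These were the 3 members at least 2-fold apart between PGCs and day 1, where 48.9 percent of 17190 genes were. The median of the members was 0.69, beside -0.41 over all genes. With other scalings 6 or 7 members were at least 2-fold apart (6 with normexp background correction, 6 with median centring and 7 with quantile normalization), beside 38.5, 44.4 and 42.7 percent of genes, and 8 of 10 were higher at day 1 with each of the 3.

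Among the remaining members the first day brought smaller differences. Aen, a p53-induced nuclease of apoptosis, was 0.89 higher, Sesn2, a sestrin that restrains mTORC1 under stress, 0.78 by its brighter probe but -0.25 by the other, Ccng1, the cyclin G1 that brings PP2A to Mdm2, 0.73, and Mdm2 0.66. Bax, the effector that permeabilises mitochondria, was 0.64 lower. Bbc3, which encodes the BH3-only protein Puma, and Trp53inp1, a cofactor of p53 in apoptosis and autophagy, differed by 0.14 and 0.06, with the other Trp53inp1 probe at -0.42.

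Transcripts of other cell types differed at the same step, although the labels describe SSEA-1 positive cells for both arrays. On the PGC array 7 of 10 blood cell markers were well above background, at a mean level of -0.46, against 3 of 10 and -5.46 at day 1. Hbb-y, an embryonic globin, stood at 4.77 and -6.46, while Ptprc, the pan-leukocyte marker, was at -5.74 and -5.56. Fibroblast markers were at a mean of -2.22 in PGCs (10 of 12 well above background) and 0.59 at day 1 (12 of 12). Immediate early and heat shock genes were at 2.65 and 1.81. In bulk RNA, fewer cells of a type and less RNA per cell cannot be told apart, and the part of these transcripts in the differences was not tested. The PGC array also had a slide of its own, so slide and state cannot be told apart.

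Set against pluripotent lines, uncultured PGCs were again low in these transcripts. In limma, with the spread taken from the ESC, EGC and parental EBRTcH3 arrays, 9 of 10 members were lower in PGCs, with a median log2 difference of -1.40 beside 0.12 over all genes. The differences were -4.23 for Pmaip1 (SE 0.84, limma adjusted p = 0.195), -3.17 for Phlda3 (SE 0.87, limma adjusted p = 0.290) and -1.88 for Aen (SE 0.76, limma adjusted p = 0.514), and 1.95 for Btg2 (SE 0.83, limma adjusted p = 0.535). None passed, as for 0 percent of 18956 genes, while 1861 genes and 2 members were at an unadjusted p under 0.05. Without the ESC array Pmaip1 passed, at -4.31 (limma adjusted p = 0.0316), as did 535 of 18641 genes (2.87 percent). Blood cell markers had a median difference of 6.87 in the full fit and pluripotency markers of -1.62, and their part was not tested. Over the 22 arrays PGCs were below every other array for 5 members (Ccng1, Aen, Sesn2, Phlda3 and Pmaip1), a count chosen after the values were seen, beside 6.08 percent of 22209 genes. For Sesn2 this held for the brighter probe, and by the other PGCs ranked 12 of 22 from the lowest. Btg2 alone of the members was highest there, beside 9.61 percent. PGCs were below all 11 PGC cultures for 6 members, Mdm2 besides, beside 11.9 percent, and below the 10 arrays of pluripotent lines for 8, beside 17.6 percent. These counts were also chosen after the values were seen, and they rest on the brighter probes. By the other probes PGCs ranked 4 of 22 from the lowest for Mdm2 and 8 of 22 for Trp53inp1.

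Later in culture most members stood higher. Between day 1 and day 2, with 2i and A83-01 7 of 10 members were lower, and the median of all 10 was -0.06. None was at least 2-fold apart, beside 8.8 percent of 16969 genes. With bFGF alone 8 of 10 were lower and Pmaip1 (-1.06) was the single member at least 2-fold apart, beside 9.09 percent of 17211 genes. Aen stood at 1.49 in PGCs, 2.37 at day 1, 2.13 at day 2, 2.67 at day 3, 3.12 at day 6 and 3.48 at day 10. Trp53inp1 stood at 2.14, 2.20, 2.15, 2.51, 3.03 and 3.98 on the same arrays. Aen was lower at day 2 than at day 1 and then higher at each later array, as was Trp53inp1 by its brighter probe. By its other probe Trp53inp1 differed by 0.25 between day 1 and day 2 and by -0.06 between day 2 and day 3. Bbc3 followed them, at 1.72, 1.87, 1.80, 2.16, 2.32 and 2.98. By its brighter probe Ccng1 ran from 2.48 through 3.21, 3.00, 3.35 and 3.39 to 4.36. The other Ccng1 probe took a different course, with 1.24 between day 2 and day 3, -1.01 between day 3 and day 6 and 0.01 between day 6 and day 10. The counts of members below rest on the brightest probes. Between day 6 and day 10, 9 of 10 members were higher, with a median of 0.67 beside 0.22 over all genes; none was at least 2-fold apart, as were 17.3 percent of 17613 genes. Quantile normalization left 8 of 10 higher there. Germ cell markers were at least 2-fold higher for 7 of 10 genes at that step (median 1.12) and pluripotency markers for 4 of 9 (median 0.94). Between day 2 and day 3, 9 of 10 were also higher (median 0.49, all genes 0.03), again with none at least 2-fold apart, beside 9.49 percent. Germ cell markers were at least 2-fold lower for 9 of 10 genes at that step (median -2.26) and fibroblast markers for 6 of 11 (median -1.16). Between day 3 and day 6 they divided 5 and 5. There Pmaip1 was the single member at least 2-fold apart, at -1.17, beside 19.6 percent of genes, while 8 of 9 pluripotency markers were at least 2-fold higher. The part of these marker shifts in the members' differences was not tested.

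The slope on log2(day + 1) over the 6 arrays was above 0 for 9 members and below 0 for Btg2. Its median was 0.40 per unit, beside -0.04 over all genes. The slope was 0.56 for Aen (SE 0.14, limma adjusted p = 0.229), 0.89 for Phlda3 (SE 0.27, limma adjusted p = 0.292), 0.51 for Trp53inp1 (SE 0.17, limma adjusted p = 0.328) and 0.45 for Ccng1 (SE 0.15, limma adjusted p = 0.337). No member passed, nor did any of 19045 genes (0 percent), with 2345 genes and 4 members at an unadjusted p under 0.05. Pmaip1 had a slope of 1.14 (SE 0.54) that turned to -0.16 without the PGC array, and that of Phlda3 went to 0.31. Without that array the slope of Aen was 0.53 and that of Trp53inp1 0.74. Days 1, 2 and 10 shared a slide, as did days 3 and 6. Within the first, day 10 against day 1 was higher for 7 of 10 members. The median of all 10 was 1.00 beside 0.31 over 17926 genes, with 1.78 for Trp53inp1, 1.60 for Bax and 1.11 for Aen, and -0.31 for Pmaip1. With slide as a block, an alternative chosen after seeing the data, the median slope was 0.37, with 0.77 for Trp53inp1, 0.52 for Aen and -0.15 for Pmaip1, and no member passed in limma. The medium of day 10 is not stated, so medium and day cannot be told apart there.

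Between day 10 cells and the EGC line, 5 members were higher and 5 lower in EGCs, and the median of all 10 was 0.02. None was at least 2-fold apart, beside 11.9 percent of 18416 genes. Fibroblast markers were lower in EGCs for 12 of 12 genes, 10 of them at least 2-fold, with a mean level of -2.41 against 0.62 at day 10, and their part was not tested. EGCs and ESCs were compared next. Phlda3 was at 5.48 in EGCs and 4.12 in ESCs, Trp53inp1 at 4.03 and 2.72, Bbc3 at 3.40 and 2.14. Btg2 was at 0.64 and -0.61 and Ccng1 at 4.42 and 3.17. These were the 5 members at least 2-fold higher in EGCs, by 1.35, 1.31, 1.26, 1.25 and 1.25, with none at least 2-fold lower, beside 19 percent of 18242 genes at least 2-fold apart and 12 percent at least 2-fold higher. The remaining differences were 0.92 for Pmaip1, 0.63 for Mdm2, 0.59 for Aen, 0.23 for Bax and 0.18 for Sesn2. Sesn2 was at -0.06 by its other probe and turned to -0.06 with quantile normalization and -0.05 with median centring, so that 9 of 10 were then higher. Each line was a single array on a slide of its own, so line and slide cannot be told apart.

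The ESC array also lay below the other pluripotent arrays. For 9 members, all but Pmaip1, it was lower than the EGC array and all 8 EBRTcH3 arrays, a count chosen after the values were seen, beside 28.3 percent of 20229 genes. For Sesn2 this held by the brighter probe, and EGCs against ESCs stood at -0.06 by the other. Phlda3 ran from 4.94 to 6.07 over the EBRTcH3 arrays (median 5.49), and Bbc3 from 3.13 to 4.19 (median 3.58), all above the ESC values of 4.12 and 2.14. Pmaip1 differed, with 1.88 in ESCs above all 8 EBRTcH3 arrays (0.34 to 1.69, median 1.21) and below EGCs.

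**Figure D2:**
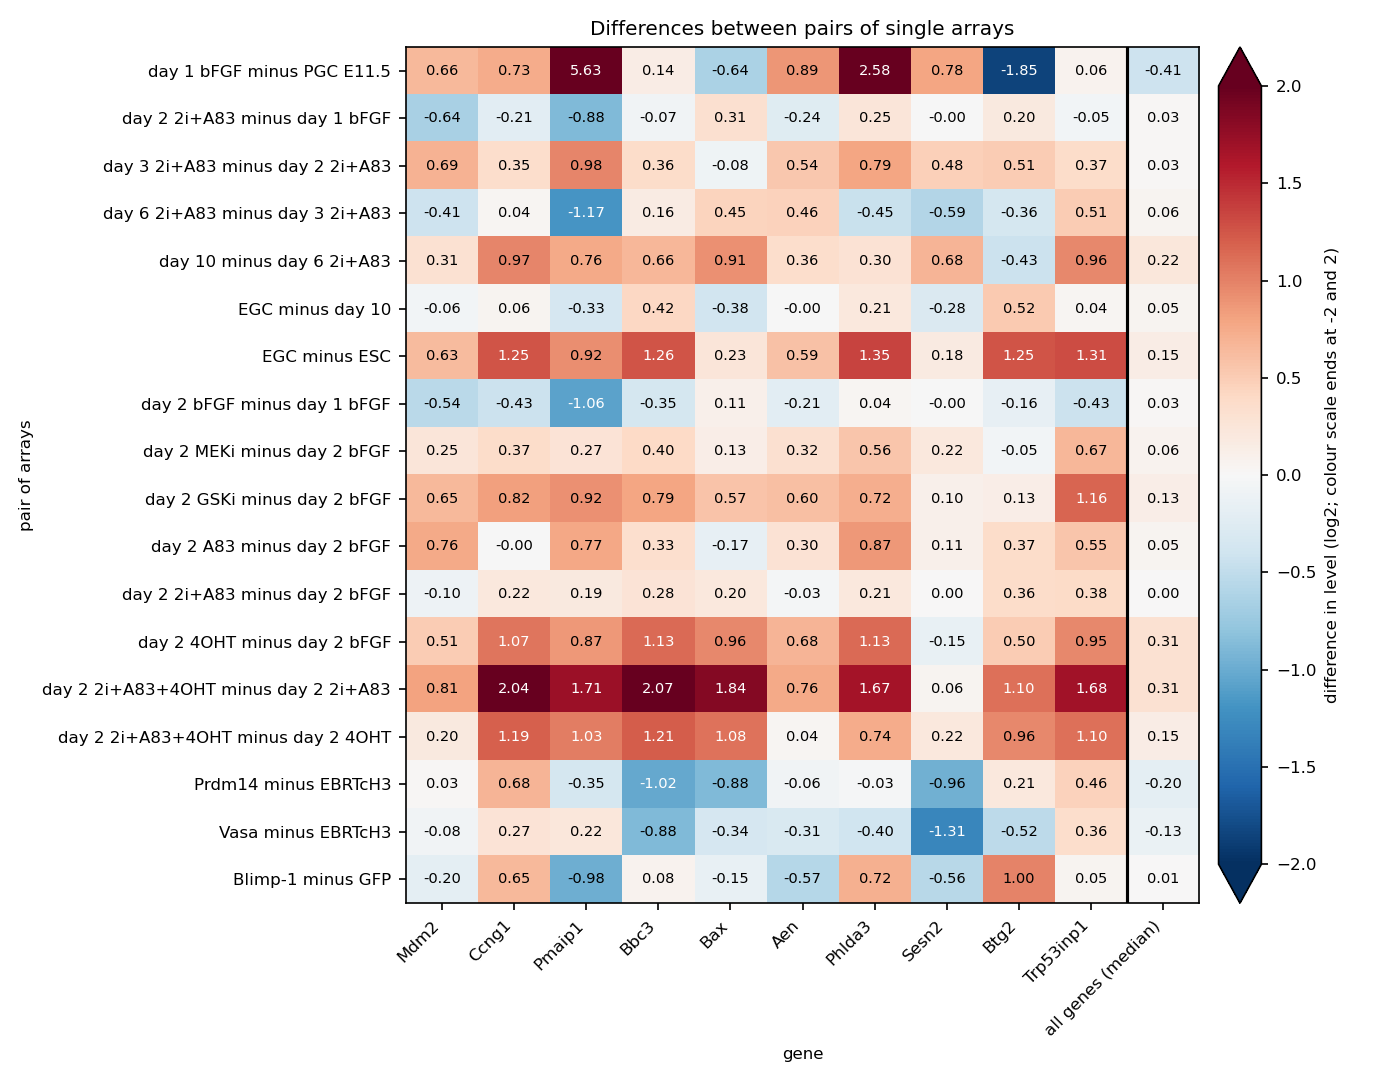
Difference in level (log2) between pairs of single arrays (rows) for the 10 p53 targets and, right of the line, the median over all genes; the colour scale ends at -2 and 2. Pmaip1 stands at 5.63 between PGCs and day 1, all 10 members are above 0 in EGCs against ESCs, and Sesn2 is close to 0 in most day 2 comparisons.

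At day 2 the single additions to bFGF were compared next. With the GSK inhibitor all 10 members were higher by their brightest probes, by a median of 0.69 beside 0.13 over all genes. Mdm2 and Pmaip1 were 0.65 and 0.92 higher. By the other probes Mdm2 was 0.24 higher and Sesn2 stood at -0.01. Quantile normalization left 9 of 10 higher. Trp53inp1, at 1.77 with bFGF and 2.93 with the GSK inhibitor, was the single member at least 2-fold higher, beside 18.4 percent of 17287 genes at least 2-fold apart and 11.4 percent at least 2-fold higher. With the MEK inhibitor 9 of 10 were higher (median 0.30, all genes 0.06) and with A83-01 8 of 10 (median 0.35, all genes 0.05), with none at least 2-fold apart beside 9.79 and 12.9 percent. The 3 single additions shared a slide on which bFGF alone was not run, and they share the bFGF array, so addition and slide cannot be told apart. Fibroblast markers were lower with the GSK inhibitor for 12 of 12 genes, 9 of them at least 2-fold (median -2.38), and at least 2-fold lower for 6 of 12 with the MEK inhibitor and 7 of 12 with A83-01. Germ cell markers were at least 2-fold lower for 9 of 10 genes with A83-01 (median -1.88). The part of these markers in the members' differences was not tested. 2i with A83-01, on the slide of bFGF alone, gave a median of 0.21 beside 0.00 over all genes, with no member at least 2-fold apart beside 3.93 percent.

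In the additive limma fit over the 7 day 2 arrays, where each term is held apart from the others, no member passed for any addition, as for 0 percent of 19095 genes. The numbers of genes at an unadjusted p under 0.05 were 616 for the MEK inhibitor, 891 for the GSK inhibitor, 707 for A83-01 and 474 for 2i with A83-01, with 0 members among them each time. The member medians were 0.05, 0.31, 0.02 and 0.54, beside 0.04, 0.08, -0.01 and 0.10 over all genes. The member medians moved with single arrays. That of the GSK inhibitor was -0.55 without its own array and 0.82 without the MEK inhibitor or the A83-01 array.

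4OHT gave the highest values of the day 2 set for most members, on the dimmest arrays of that set. Bbc3 was at 1.52 with bFGF, 1.92 with the MEK inhibitor, 2.31 with the GSK inhibitor, 1.85 with A83-01 and 1.80 with 2i and A83-01, against 2.65 with 4OHT and 3.86 with 2i, A83-01 and 4OHT. Bax was at 2.47, 2.59, 3.04, 2.30 and 2.67, against 3.43 and 4.51. Both 4OHT arrays lay above the 5 others for 6 members (Ccng1, Bax, Bbc3, Aen, Btg2 and Phlda3), and so they did for 44.7 percent of 19052 genes. The array with 2i, A83-01 and 4OHT was the highest of the 7 for 8 members, beside 50.3 percent, and bFGF alone the lowest for 4, beside 16.6 percent. All 3 counts were chosen after the values were seen. Against bFGF alone, 4OHT gave a median of 0.91 beside 0.31 over all genes, with Bbc3 (1.13), Phlda3 (1.13) and Ccng1 (1.07) at least 2-fold higher, beside 37.5 percent of 17206 genes at least 2-fold apart and 26.2 percent higher. No member was at least 2-fold apart with normexp, quantile or median scaling, beside 30.6, 34.6 and 34.9 percent of genes, while 9 of 10 were still higher with each of the 3. Added to 2i and A83-01, 4OHT gave a median of 1.67 beside 0.31, with 7 members at least 2-fold higher beside 51 percent of 16359 genes at least 2-fold apart and 35.8 percent higher. The values were 2.07 for Bbc3, 2.04 for Ccng1, 1.84 for Bax and 1.71 for Pmaip1. That direction depended on the background correction: with normexp 9 of 10 members were lower and the median was -0.50, whereas with quantile normalization 9 of 10 were higher and the median was 0.94. The same array against 4OHT alone gave 5 members at least 2-fold higher (median 1.00), beside 13.3 percent of 15579 genes at least 2-fold apart and 8.77 percent higher. All 10 turned negative with normexp (median -0.99). With quantile or median scaling 7 of 10 were higher and none was at least 2-fold apart, beside 13.6 percent of genes with each.

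The 4OHT term of the fit was 1.32 for Ccng1 by its brighter probe, with the opposite sign by the other (SE 0.36, limma adjusted p = 0.0646), 1.32 for Bbc3 (SE 0.37, limma adjusted p = 0.0683) and 1.30 for Bax (SE 0.31, limma adjusted p = 0.0565). Sesn2, at -0.14 (SE 0.26), was below 0. No member passed, nor did any of 19095 genes (0 percent), though 8914 genes and 4 members were at an unadjusted p under 0.05. The median of the members was 0.90 and that of all genes 0.58. The shift of all genes was 0.06 with quantile normalization and 0.11 with median centring, where the members' medians were 0.45 and 0.43. Leaving out the MEK inhibitor, the GSK inhibitor or the A83-01 array brought 6 members past the threshold each time (Ccng1, Bax, Bbc3, Trp53inp1, Phlda3 and Pmaip1), but 9438 to 9786 of all genes, 51 to 51.7 percent, passed there as well. Leaving out bFGF alone brought 3765 genes and no member past it. With normexp the median was -0.17, and Mdm2, Aen, Trp53inp1, Phlda3 and Pmaip1 changed sign. Both 4OHT arrays shared a slide that held nothing else, at 75th percentiles of 252.3 and 123.9 against 476.4 to 704.7 on the other 5, so 4OHT, slide and signal cannot be told apart. Fibroblast markers were at a mean level of -1.64 with 4OHT (9 of 12 well above background) and -2.75 with 2i, A83-01 and 4OHT (5 of 12), against 1.42 with bFGF alone (12 of 12). Pluripotency markers were at least 2-fold higher for 4 of 9 genes with 4OHT and for 5 of 9 with 4OHT on 2i and A83-01. Their part in the differences was not tested.

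Over the 8 arrays of EBRTcH3 ESCs, parental or with a forced gene, the levels ranged by 1.85 for Ccng1, 1.76 for Btg2, 1.35 for Pmaip1 and 1.32 for Sesn2, and by 0.88 for Bax. No member passed for any construct in limma, beside 0 percent of 19269 genes for Prdm14, Vasa, Nanos2, Nanos3 and Blimp-1 and 0.0104 percent for Dnd, and no member was at an unadjusted p under 0.05. Genes at that unadjusted p numbered 1198, 531, 560, 1758 and 929 for the first 5 constructs named. Member medians were 0.08 for Prdm14, -0.18 for Vasa, 0.08 for Nanos2, 0.09 for Nanos3, -0.21 for Dnd and -0.05 for Blimp-1. All genes stood at -0.20 with Prdm14, -0.07 with Vasa, 0.12 with Nanos2, -0.17 with Nanos3, 0.03 with Dnd and 0.12 with Blimp-1. With slide as a block, each estimate set a construct against the other arrays of its slide. For Prdm14 and Vasa those were the parental array and the other construct, and for Blimp-1 the GFP array. For Nanos2, Nanos3 and Dnd they were constructs only, so a shift common to that slide cancelled and was not tested. Against the parental array on its slide, forced Prdm14 came with Bbc3 at 3.17 in place of 4.19, a difference of -1.02 and the single member at least 2-fold apart, beside 29.2 percent of 16105 genes; normexp and quantile scaling took it under 2-fold. Forced Vasa came with Sesn2 at 4.61 in place of 5.92, a difference of -1.31 and the single member at least 2-fold apart, beside 17.9 percent of 16228 genes. The parental array, at a 75th percentile of 195.5, was the highest of the 8 for Sesn2, Bax and Bbc3, as seen after the fact. The share of all genes highest on that array was not computed, so nothing about the members is read from it. Blimp-1 against GFP left no member at least 2-fold apart, beside 15.8 percent of 16900 genes: Btg2 stood at 1.39 and 0.40 and Pmaip1 at 0.34 and 1.32. The Blimp-1 array was the lowest of the 8 for Aen, Sesn2 and Pmaip1, beside 10.1 percent of 19221 genes.

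The remaining constructs shared a slide. The Nanos2, Nanos3 and Dnd arrays lay above the other 5 for 3 members, Ccng1, Mdm2 and Aen, a count chosen after the values were seen, beside 2.97 percent of genes. Ccng1 was at 5.45, 5.47 and 5.0 there and between 3.62 and 4.31 elsewhere. The count and these levels rest on the brightest probes. Over 22 arrays the 2 probes correlated at r = 0.26 for Ccng1, 0.79 for Mdm2 and 0.96 for Aen. That slide had no parental or GFP array, so slide and constructs cannot be told apart.

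The members did not vary alike. The range over 22 arrays was 6.46 for Pmaip1 and 4.49 for Phlda3, above 99 and 93 percent of the 11519 genes that were well above background on all arrays. Both genes had their lowest level on the PGC array. Over the 11 PGC cultures they ranged by 1.91 each, and over the 10 arrays of pluripotent lines by 2.46 and 1.95. Over the 22 arrays the range was 1.64 for Mdm2, above 18.6 percent, while the median gene ranged over 2.35. Bax and Bbc3 followed each other closely (Pearson r = 0.94 over 22 arrays, as a description), as did Trp53inp1 and Bbc3 (r = 0.92). Of the 45 pairs of members 35 had r above 0. Without Btg2, Pmaip1 and Sesn2, a choice made after the values were seen, all 21 pairs lay between 0.46 and 0.94. Pmaip1 had its highest r with Phlda3 (0.47) and its lowest with Btg2 (-0.43). These arrays share slides and scaling, so the correlations carry both. Outside the list, the genes closest to the mean of the members were Slc19a2 (r = 0.936), Ddit4l (0.912), W15861 (0.895), Hhex (0.87), Dhx16 (0.856), Hspb1 (0.855), Rhbdf2 (0.849) and Cd81 (0.848), over the same 22 arrays.

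For 6 members several probes could be compared. Those of Aen (r = 0.96), Trp53inp1 (0.95), Sesn2 (0.83), Mdm2 (0.79) and Btg2 (0.87 to 0.96) correlated over the 22 arrays, and those of Ccng1 less so (r = 0.26). The brighter one lies at chr11:40564413-40564472 and the other at chr11:40562427-40562486 (mm9, minus strand), further 3′ in the gene, as annotated in the files. On PGCs the first read 2.48 and the second 0.41. With 2i, A83-01 and 4OHT they read 5.04 and 1.77, against 3.00 and 2.81 with 2i and A83-01, so the 4OHT difference was 2.04 by one probe and -1.04 by the other. The 4OHT term was 1.32 by the brighter probe and -1.20 by the other (SE 0.45, limma adjusted p = 0.108). EGCs against ESCs agreed in direction, at 1.25 and 0.75, and so did day 1 against PGCs, at 0.73 and 2.24. The direction of Ccng1 with 4OHT therefore rests on 1 probe. Sesn2 was at 0.30 per unit of time by its brighter probe and -0.00 by the other. For Mdm2, Blimp-1 against GFP read -0.20 by the brighter probe and 0.89 by the other.

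**Figure D3:**
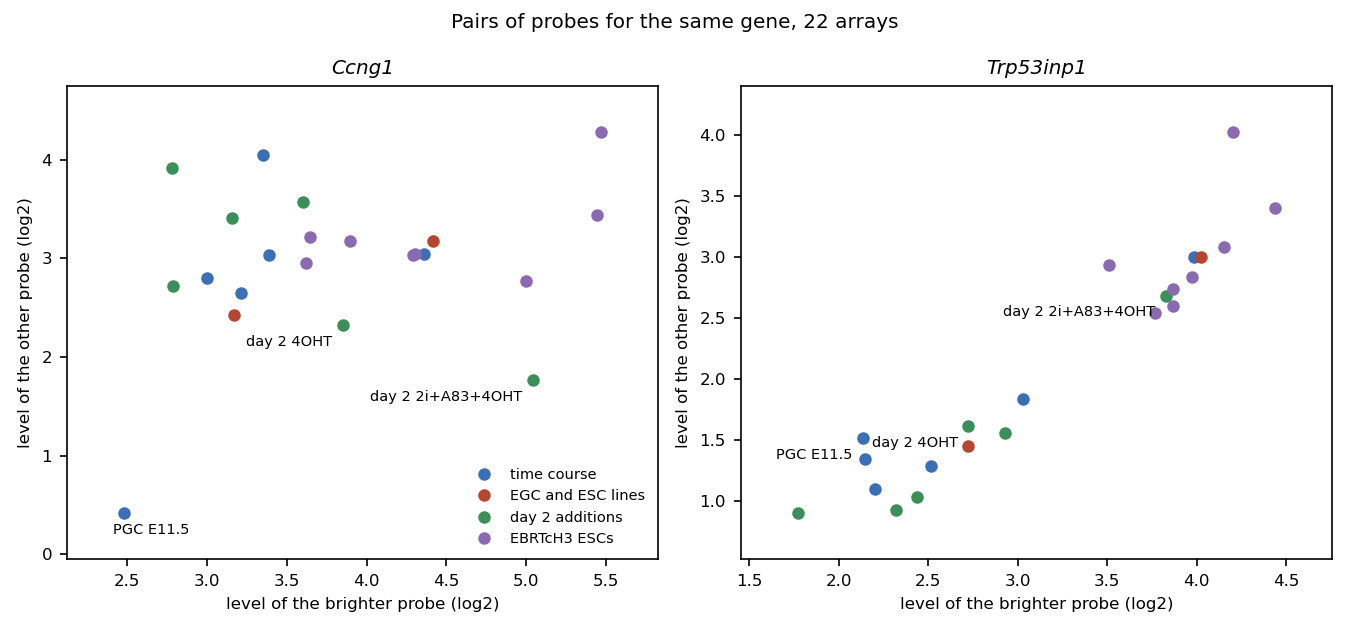
Level (log2) of the brighter probe (x axis) against the other probe (y axis) of Ccng1 and Trp53inp1; each point is 1 of 22 arrays. The Trp53inp1 probes run together (r = 0.95), whereas those of Ccng1 (r = 0.26) stand furthest apart with 2i, A83-01 and 4OHT, at 5.04 and 1.77.

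The transcripts of p53 and its regulators took other courses. Trp53 was at 1.97 in PGCs, 1.78 at day 1, 1.63 at day 2, 1.70 at day 3, 1.49 at day 6, 3.02 at day 10 and 2.17 in EGCs. It was lowest on the 4OHT arrays, at 1.23 and 1.17, and lay between 2.66 and 3.48 in EBRTcH3 cells. Most targets were high on the 4OHT arrays in the main scaling, but these arrays were dim and shared a slide. With normexp 9 members on the 2i, A83-01 and 4OHT array changed sign against 2i and A83-01, and 10 against 4OHT alone. Cdkn2a, whose Arf product shields p53 from Mdm2, was not well above background in PGCs (measured at -4.04) and stood at 1.58 at day 1, at least 38.9-fold higher. It was at 2.36 at day 2, 2.06 at day 3, 0.16 at day 6 and -0.76 at day 10, and at -2.24 in EGCs. Cdkn2a thus peaked early, while Aen and Trp53inp1 were highest late. Fibroblast markers were at a mean of -2.22 in PGCs, 0.59 at day 1 and 1.09 at day 2. They were at 0.04 at day 3, 0.56 at day 6, 0.62 at day 10 and -2.41 in EGCs. Their part in the course of Cdkn2a was not tested. Cdkn1a, the CDK inhibitor p21, had its highest level at day 3 (3.82), with 1.98 in PGCs, 2.34 in EGCs and 0.89 in ESCs. Mdm4, the partner of Mdm2, moved from -0.07 in PGCs to -1.01 at day 1 and reached 1.15 with Blimp-1. In the fits of the time trend, of PGCs against lines and of 4OHT none of the 4 passed (lowest limma adjusted p = 0.0537, for Cdkn2a with 4OHT, at -1.64). Of the 20 listed genes for p53 and its regulators, 10 of 20 tested had a slope above 0 over time, with a median of -0.00.

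**Figure D4:**
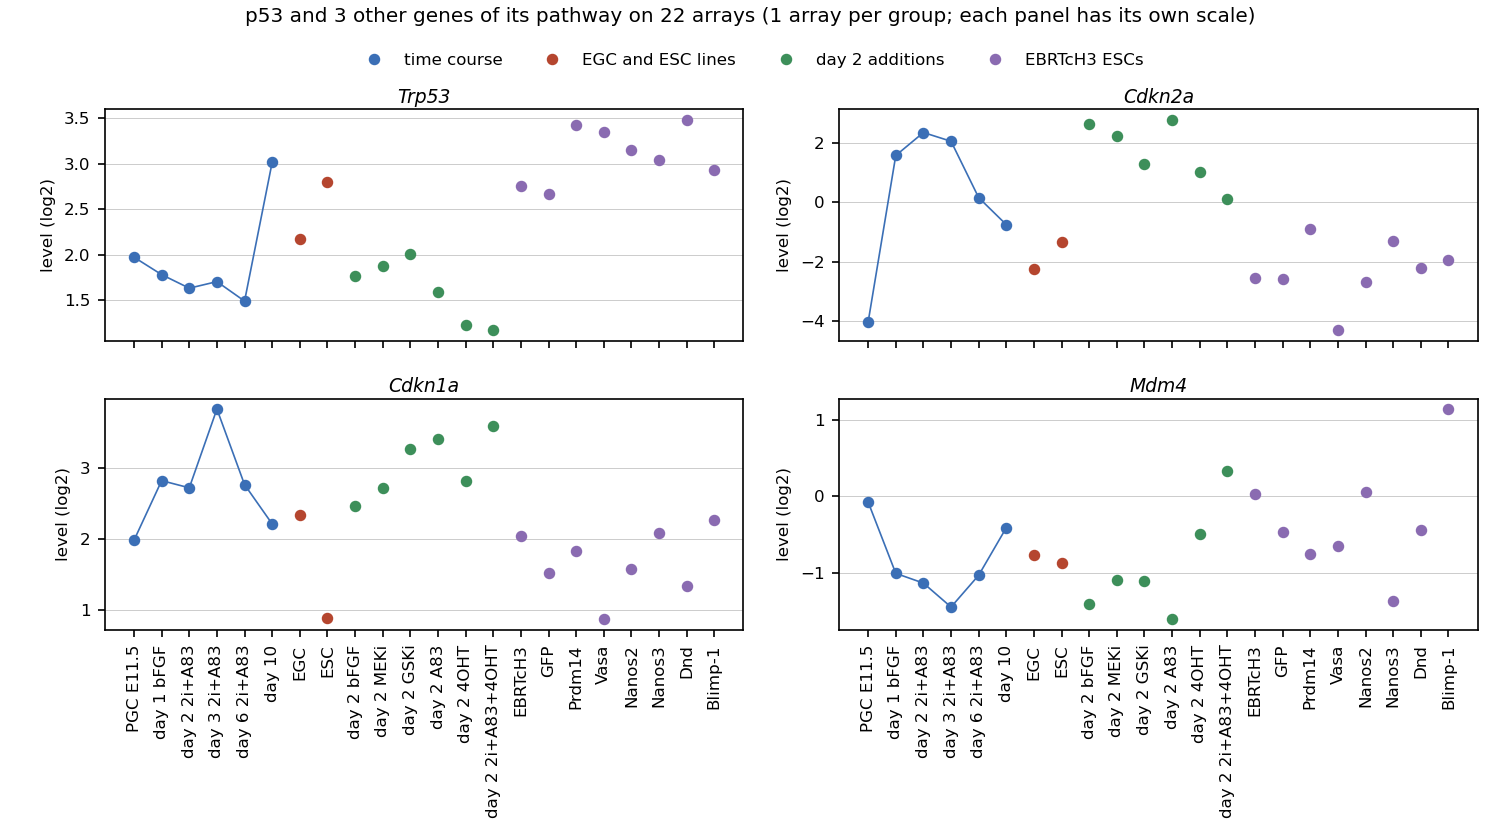
Level (log2) of Trp53, Cdkn2a, Cdkn1a and Mdm4 on the 22 arrays; each point is 1 array, the line joins the time course, and each panel has its own scale. Cdkn2a is highest at days 1 to 3 and low in lines, and Trp53 is lowest on the 4OHT arrays, at 1.23 and 1.17.

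A wider list of 28 other p53 targets was read beside the members. Over time 21 of 27 tested had a slope above 0, with a median of 0.22, and 0 passed in either direction in limma. In PGCs against pluripotent lines 16 of 28 were lower and 12 higher. The median there was -0.23, beside 0.12 over all genes and -1.40 for the members. The 4OHT term was above 0 for 17 of 28 and below 0 for 11. Its median was 0.28, beside 0.58 over all genes and 0.90 for the members. Between PGCs and day 1, 8 were at least 2-fold higher and 5 lower, 13 of 28 beside 48.9 percent of all genes, with a median of 0.44 beside -0.41. Fas, the death receptor, was at -3.77 in PGCs and 0.73 at day 1, at least 4.43 higher on the log2 scale. Ephx1, an epoxide hydrolase, was 3.59, Zmat3, a zinc finger RNA-binding protein, 2.80 and Eda2r, a TNF receptor, at least 2.73 higher. Tigar, a fructose bisphosphatase, stood at -2.27 in the same comparison, Cdip1 at -1.76, Pidd1, the scaffold of the PIDDosome, at -1.71 and Rap2b at -1.09. In EGCs against ESCs 24 of 28 were higher, 10 of them at least 2-fold and none at least 2-fold lower, beside 12 percent of all genes higher, with a median of 0.73 beside 0.15. Plk2, a polo-like kinase, was 2.19 higher, Eda2r 1.88, Dram1 at least 1.64 and Ephx1 1.53. With 4OHT added to 2i and A83-01 the list went both ways, 9 at least 2-fold higher and 4 lower, 13 of 28 beside 51 percent of all genes. Pidd1 (3.14), Perp (3.11), Tigar (2.69) and Ei24 (1.99) were higher there, and Ckap2 (-2.91), Fas (-2.24), Ephx1 (-1.85) and Xpc (-1.78) lower.

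Other genes of the mitochondrial death pathway were read in the same way. Of 20 listed BCL2 family and caspase genes, 18 were measured between PGCs and day 1, with 2 at least 2-fold higher and 3 lower beside 48.9 percent of all genes. Bok, a relative of Bax, was 1.92 and Bcl2l11, which encodes the BH3-only protein Bim, 1.39 higher. Bcl2, the founding survival gene, differed by -2.0, Diablo by -1.10 and Bmf by -1.07. In EGCs against ESCs none was at least 2-fold higher and 2 were lower, Bcl2l2 (-2.02) and Bcl2l11 (-1.11), with a median of 0.00 beside 1.09 for the members. With 4OHT on top of 2i and A83-01, 8 of 18 were at least 2-fold higher and none lower, beside 35.8 percent of all genes higher, led by Bcl2 (2.72), Bok (2.18), Bik (2.07) and Bcl2l1 (2.03), on the dim array whose values depended on the background correction.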

How the data were processed

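Each of 22 samples was hybridised to 1 one-colour Agilent array. Per the file headers, the authors extracted spots with Agilent Feature Extraction 10.7.3.1, and the deposited values are intensities after background subtraction and detrending within the array, with probes annotated on mm9. The deposited value table of the series holds the same intensities, with repeat spots averaged, on a linear uncentred scale, and served as an alternative. Control and outlier spots were left out, repeat spots averaged, and log2 intensity was scaled to each array's 75th percentile. For gene names, 27013 probes matched a RefSeq accession, 5017 a symbol and 799 a synonym, while 8345 retained the name on the array. The brightest probe stood for a gene. Any gene that 1 or more arrays of a fit called well above background was tested with limma 3.58.1 (R 4.3.3, lmFit and eBayes, two-sided, Benjamini-Hochberg over all genes tested, threshold 0.05). The spread in each fit comes from single arrays assumed to vary alike. The time trend used 6 arrays, PGCs against lines 4, the additive day 2 fit 7 (2 residual degrees of freedom), and each construct the 8 EBRTcH3 arrays with slide as a block. Between 2 arrays, a side not well above background took the lowest level that passed on its array, giving an "at least" difference, and 2-fold was the threshold. Background correction, scaling, probe choice, dim-probe filter, time scale, slide and left-out arrays were varied. Fits were tested on simulated data. The members and lists were chosen with earlier results of these data known. Named beyond the members were Trp53, Mdm4, Cdkn1a and Cdkn2a, up to 4 called genes in each direction of 2 lists, and the 8 genes closest to the members' mean. Python 3.11.15 with pandas 2.3.3 and matplotlib 3.10.9 was used for tables and figures.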

Additional observations from a re-analysis of the deposited data

How the results depend on the processing

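Summaries of the members that are not named here stayed on their side of the threshold and within the spread under each alternative that was run. No paired analysis was possible because each group has 1 array. The cause of the differences below was not tested.

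With normexp background correction the 4OHT term had 1 member passing, Sesn2 at -1.21, beside 45.4 percent of all genes, and a median of -0.17, and it turned to -0.59 for Mdm2, -0.43 for Aen, -0.15 for Trp53inp1, -0.21 for Phlda3 and -0.19 for Pmaip1. The median for 2i with A83-01 was -0.46. Members at least 2-fold apart numbered 6 between PGCs and day 1, 0 for 4OHT on bFGF, 3 for 4OHT on 2i and A83-01 (median -0.50) and 0 for Prdm14, beside 38.5, 30.6, 43.8 and 18.2 percent of genes. The median for 2i, A83-01 and 4OHT against 4OHT was -0.99.

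With quantile normalization the 4OHT median was 0.45 and Mdm2 was at -0.014. The same counts were 7, 0, 4 (median 0.94) and 0, beside 42.7, 34.6, 45 and 26 percent of genes. The count was 1 between day 1 and day 2 with 2i and A83-01, beside 8.59 percent. It was 0 for 2i, A83-01 and 4OHT against 4OHT, beside 13.6 percent. With median centring the 4OHT median was 0.43 and Mdm2 was at -0.16. The counts were 6 between PGCs and day 1 and 1 between day 2 and day 3, beside 44.4 and 9.83 percent of genes. Those for 4OHT on bFGF and for 2i, A83-01 and 4OHT against 4OHT were 0, beside 34.9 and 13.6 percent. For Blimp-1 the count was 3, beside 19 percent. The deposited value table gave 1 for Blimp-1, beside 16.1 percent. The mean over probes gave 1 passing member for 4OHT beside 21.7 percent of all genes. Members at least 2-fold apart then numbered 1 between day 6 and day 10 and 0 for the GSK inhibitor, beside 19.2 and 19.3 percent. With no filter on dim probes 3 members passed for 4OHT beside 56.2 percent of all genes, and 3 with the stricter filter beside 38.1 percent. With slide as a block, chosen after seeing the data, the slope of Pmaip1 was -0.15.

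Leaving out 1 array at a time, the slope of Pmaip1 ran from -0.16 to 1.53, and members passing from 0 to 1 for PGCs against lines (at most 2.87 percent of all genes) and from 0 to 6 for 4OHT (at most 51.7 percent). Member medians ran from -0.88 to 0.42 for the MEK inhibitor, -0.55 to 0.82 for the GSK inhibitor, -0.96 to 0.54 for A83-01, 0.47 to 1.43 for 4OHT and 0.030 to 0.97 for 2i with A83-01. The 4OHT term of Sesn2 ran from -0.26 to 0.00738. Each comparison is limited by 1 array per group, and the 4OHT comparisons also by the low signal of those arrays.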
